A study of Mus musculus with 12 samples.

Results

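The genes described here encode killer cell lectin-like receptors of the Ly49 family (Klra5 and Klra9) and of the NKR-P1 family (Klrb1b, Klrb1c and Klrb1f). Each was taken from probe sets annotated with that gene's symbol and no other, and each had 1 such probe set, so that the 5 genes stand among 22180 named genes of the array. All 5 lay above the filter on low values and were among the 16667 genes tested, but Klra9 passed it only through its values in B6 ROR- cells and 1 BALB/c ROR- array. RNA of mouse cells was measured on Affymetrix whole-transcript arrays, 12 in all and in 5 groups, namely ROR- cells of the BALBC strain (3 arrays), iNKT17 cells of the BALBC strain (3), and ROR- (2), iNKT17 (2) and gamma-delta 17 cells (2) of B6 mice. The BALBC strain is written BALB/c below. The sources used here give no genetic alteration, treatment, age or organ for any group, nor do they say how ROR- cells were sorted or which antigen receptor these carry. The labels do not say whether replicates were separate animals, so the p-values measure only how far these samples spread, which may be technical variation, and the number of arrays limits their precision.

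An invariant natural killer T (iNKT) cell is a T cell of the alpha-beta lineage that recognises lipids on CD1d, and the iNKT17 subset makes interleukin 17. Ly49 and NKR-P1 receptors are type II membrane proteins with a C-type lectin-like domain, best known from natural killer (NK) cells, and both families lie in the NK gene complex. Ly49 receptors mostly bind major histocompatibility complex (MHC) class I molecules, while NKR-P1 receptors bind Clr proteins, encoded by Clec2 genes. Inhibitory members carry an ITIM motif in the cytoplasmic tail, and activating members signal through adaptor proteins. Ly49 haplotypes differ between inbred strains in the number and sequence of their genes, and the NKR-P1C antigen NK1.1 is detected by its standard antibody on B6 but not on BALB/c cells.

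The annotation, the RefSeq gene table for GRCm38.p6, placed the members on chromosome 6 in the order Klrb1c, Klrb1b, Klrb1f, Klra5 and Klra9. Whether the probes read the BALB/c and the B6 allele of a member equally was not tested, since probe sequences were not used here. In every comparison between strains below, the amount of a transcript and the reading of its allele by the probes cannot be told apart. Comparisons within a strain have the same alleles on both sides. An allele that the probes read poorly could still hold both groups of a strain near the dim level. A missing call at such values, or an interaction that includes it, does not show that a gene failed to respond. Whether this applies to any member was not tested. In RNA from bulk cells, fewer cells of a type and less RNA per cell cannot be told apart either. Values are given as deposited, on a log2 scale, so that a difference of 1 is a doubling. They are compared between arrays for a given gene and never between genes, because probe sets differ in brightness. The dim level of 3.45 (the 30th percentile of named probe-set values) is no measured background, but a fold change against a group below it is uncertain in size.

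**Figure D1:**
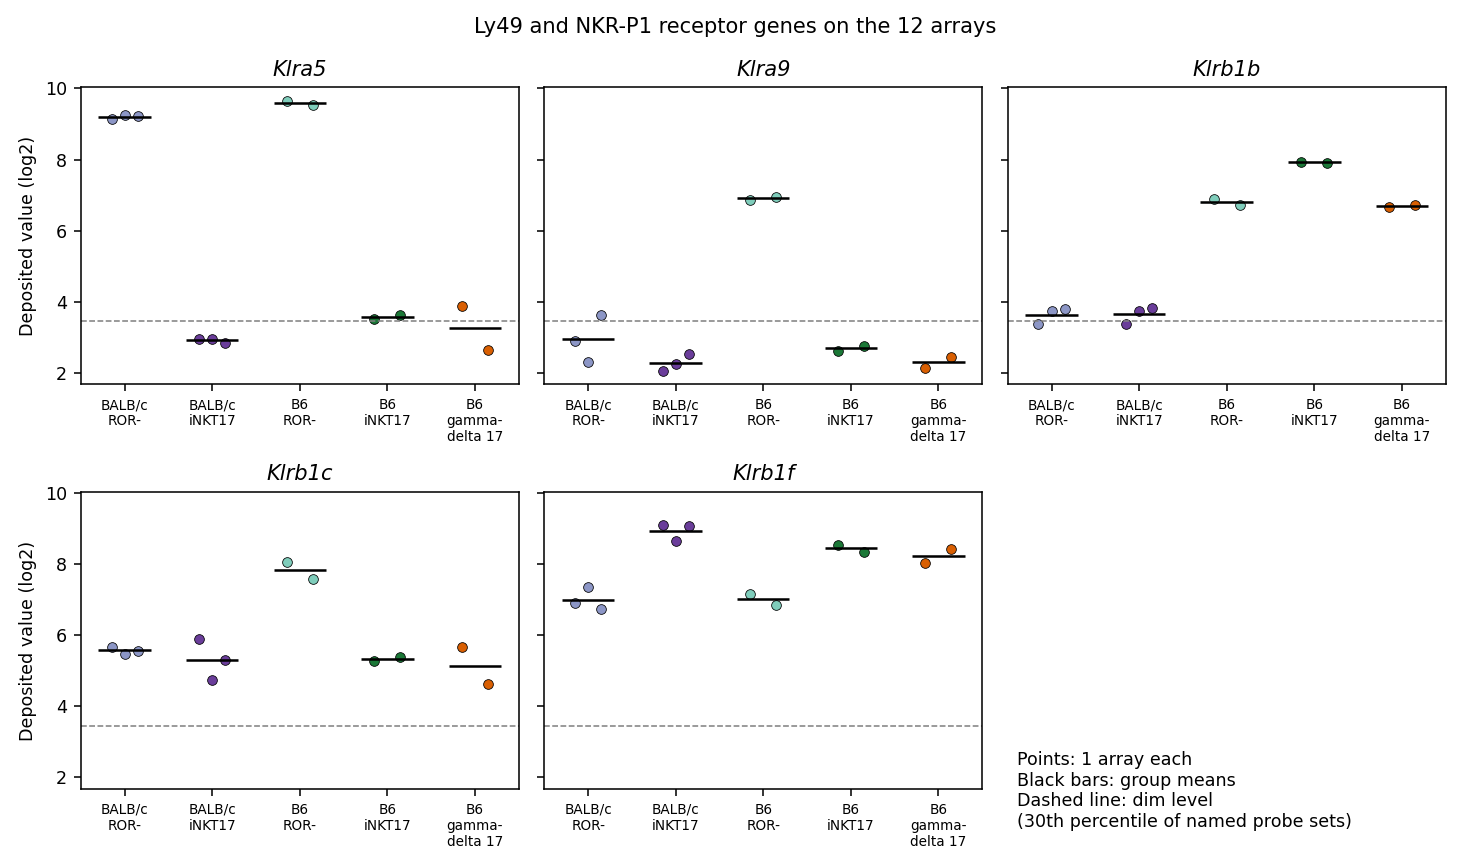
Deposited log2 value of each of the 5 receptor genes on each of the 12 arrays, with 1 point per array, black bars for group means and a dashed line at the dim level of 3.45. Klra5 is high on all 5 ROR- arrays, Klra9 on the 2 B6 ROR- arrays, and Klrb1b on all 6 B6 arrays, while Klrb1f is higher on the iNKT17 and gamma-delta 17 arrays than on the ROR- arrays.

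Klra5 encodes Ly49E, an inhibitory receptor known from fetal NK cells and some gamma-delta T cells, for which urokinase has been described as a ligand. Its values on the BALB/c ROR- arrays were 9.14, 9.26 and 9.22, and on the BALB/c iNKT17 arrays 2.96, 2.96 and 2.84. In B6 mice it stood at 9.65 and 9.52 in ROR- cells, at 3.52 and 3.63 in iNKT17 cells, and at 3.87 and 2.65 in gamma-delta 17 cells. The ROR- arrays of both strains were high and did not overlap with any iNKT17 or gamma-delta 17 array, whose values lay around the dim level. The order of the group means was B6 ROR-, BALB/c ROR-, B6 iNKT17, B6 gamma-delta 17 and BALB/c iNKT17, where the arrays of the 2 ROR- groups did not overlap and both iNKT17 groups lay within the range of the gamma-delta 17 arrays.

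Klra9 encodes Ly49I, an inhibitory receptor for MHC class I. It was 6.87 and 6.95 on the B6 ROR- arrays and 2.90, 2.30 and 3.62 on the BALB/c ROR- arrays. The other groups held 2.05, 2.24 and 2.54 (BALB/c iNKT17), 2.60 and 2.77 (B6 iNKT17), and 2.15 and 2.45 (B6 gamma-delta 17). Only the B6 ROR- arrays were well clear of the dim level, and among the other 4 groups the single value above it was that of BALB/c ROR- replicate 3. The means of those 4 groups followed in the order BALB/c ROR-, B6 iNKT17, B6 gamma-delta 17 and BALB/c iNKT17, and each of the other 3 groups overlapped with the BALB/c ROR- arrays.

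The 250 bases before the annotated starts of Klra5 (chr6:129913225-129913474, minus strand) and Klra9 (chr6:130193113-130193362, minus strand) are shown because both genes were high in B6 ROR- cells and only Klra5 was also high in BALB/c ROR- cells. They are RefSeq sequences of GRCm38.p6, an assembly of the C57BL/6J strain, and are written from 5′ to 3′ in the direction of transcription; capitals mark the longest stretch that the 2 windows share.
Klra5: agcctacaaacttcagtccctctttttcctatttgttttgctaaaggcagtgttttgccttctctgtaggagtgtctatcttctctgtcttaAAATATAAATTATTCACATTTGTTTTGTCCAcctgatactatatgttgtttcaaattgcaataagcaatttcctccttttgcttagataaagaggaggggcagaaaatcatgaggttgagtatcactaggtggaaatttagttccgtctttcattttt
Klra9: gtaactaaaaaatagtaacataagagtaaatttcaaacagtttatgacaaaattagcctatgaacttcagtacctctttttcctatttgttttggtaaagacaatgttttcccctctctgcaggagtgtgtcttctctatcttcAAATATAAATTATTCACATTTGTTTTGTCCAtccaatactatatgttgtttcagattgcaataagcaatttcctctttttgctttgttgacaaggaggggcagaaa
The shared stretch is 31 bases long. A local alignment of the 2 windows covered 198 columns, of which 87.9% were identical. The BALB/c sequence of these windows was not used here.

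Klrb1b encodes NKR-P1B, an inhibitory receptor that binds Clr-b, the product of Clec2d. It was 7.92 and 7.92 in B6 iNKT17 cells, 6.90 and 6.72 in B6 ROR- cells, and 6.67 and 6.72 in B6 gamma-delta 17 cells. On the BALB/c arrays it was 3.38, 3.74 and 3.79 in ROR- cells and 3.37, 3.74 and 3.83 in iNKT17 cells. All 6 B6 arrays stood far above all 6 BALB/c arrays, which lay close to the dim level in both cell types. Within B6 the iNKT17 arrays were the highest, and the ROR- and gamma-delta 17 arrays met at 6.72.

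Klrb1c encodes NKR-P1C, an activating receptor that signals through the Fc receptor gamma chain, the product of Fcer1g. It was 8.06 and 7.59 on the B6 ROR- arrays, and 5.68, 5.47 and 5.57 on the BALB/c ROR- arrays. It was 5.90, 4.73 and 5.30 in BALB/c iNKT17 cells, 5.26 and 5.40 in B6 iNKT17 cells, and 5.66 and 4.62 in B6 gamma-delta 17 cells. The B6 ROR- arrays stood alone at the top, and the other 4 groups overlapped one another, apart from the BALB/c ROR- arrays, which all lay above the B6 iNKT17 arrays.

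Klrb1f encodes NKR-P1F, which binds several Clr proteins, among them Clr-g, the product of Clec2i. It was 6.90, 7.37 and 6.73 in BALB/c ROR- cells and 7.16 and 6.85 in B6 ROR- cells. The iNKT17 arrays held 9.09, 8.64 and 9.08 in BALB/c and 8.55 and 8.34 in B6, and the gamma-delta 17 arrays 8.02 and 8.43. Every iNKT17 and gamma-delta 17 array was above every ROR- array, and the ROR- arrays of the 2 strains overlapped. The means fell in the order BALB/c iNKT17, B6 iNKT17, B6 gamma-delta 17, B6 ROR- and BALB/c ROR-; the 2 iNKT17 groups did not overlap, while B6 iNKT17 and gamma-delta 17 did.

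Klrb1b and Klrb1f rose together from ROR- to iNKT17 cells of B6 mice (values below), so the windows before their starts are set side by side, from RefSeq as above: chr6:128826316-128826565, minus strand, for Klrb1b and chr6:129045651-129045900, plus strand, for Klrb1f. Capitals again mark the longest stretch that both windows hold.
Klrb1b: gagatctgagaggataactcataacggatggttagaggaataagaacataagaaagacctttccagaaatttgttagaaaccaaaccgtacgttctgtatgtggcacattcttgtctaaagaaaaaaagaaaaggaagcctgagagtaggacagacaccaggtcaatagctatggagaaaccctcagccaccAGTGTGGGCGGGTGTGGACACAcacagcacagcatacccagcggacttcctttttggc
Klrb1f: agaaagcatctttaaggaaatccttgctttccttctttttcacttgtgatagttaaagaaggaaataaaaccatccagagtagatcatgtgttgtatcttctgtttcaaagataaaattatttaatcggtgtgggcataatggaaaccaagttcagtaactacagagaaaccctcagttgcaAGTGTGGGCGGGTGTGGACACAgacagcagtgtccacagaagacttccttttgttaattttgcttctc
This stretch is 22 bases long, and the local alignment covered 94 columns with 78.7% identity. It contains the letters GGTGTG, the core of T-box factor sites. The 5 short motifs searched on both strands of all members' windows were AGGTCA (a nuclear receptor core), TGTGGT (Runx), GGTGTG (T-box), CTTTGA (TCF/LEF) and TTCNNNGAA (STAT). Klrb1b held AGGTCA and GGTGTG once each, Klrb1f held GGTGTG at 2 places and CTTTGA once on the reverse strand, Klrb1c held TGTGGT once, and the windows of Klra5 and Klra9 held none of the 5. Of 32851 RefSeq windows of the same length, 14.0% held AGGTCA, 14.0% TGTGGT, 16.3% GGTGTG, 13.8% CTTTGA and 7.02% TTCNNNGAA. These matches describe letters and do not show binding.

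The first comparison asked how iNKT17 cells differ from ROR- cells of the same strain. Klra5 was lower in iNKT17 cells of both strains, the largest difference of any member in either strain, and Klrb1f was higher in both. Klra9 and Klrb1c were lower, and Klrb1b higher, in B6 iNKT17 cells, while in BALB/c none of these 3 passed the test. In BALB/c, 1 member rose and 1 fell, where 6.97% of all genes tested passed an adjusted p of 0.05 in limma. In B6, 2 rose and 3 fell, against 5.99% of all genes; Klra9, which passed the filter through the group where it is high, is one of these and lends that count no support.

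In BALB/c, Klra5 fell by 6.29 ± 0.23 on the log2 scale (SE; limma adjusted p = 6.58e-08), to a mean 0.53 below the dim level, so the 78.1-fold ratio is uncertain in size. In B6 it fell by 6.01 ± 0.28 (adjusted p = 1.08e-06). Klrb1f rose by 1.94 ± 0.19 in BALB/c (3.83-fold, adjusted p = 7.03e-05) and by 1.44 ± 0.24 in B6 (2.71-fold, adjusted p = 0.00314). These 4 differences were past the threshold under each of the 21 alternatives run.

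Klra9 fell by 4.23 ± 0.32 in B6 (limma adjusted p = 1.32e-05), with the iNKT17 mean 0.76 below the dim level. In BALB/c its difference was -0.67 ± 0.26 (adjusted p = 0.193), with both groups' means below that level, and without BALB/c ROR- replicate 2 it was -0.99 (adjusted p = 0.0208). The activating receptor gene Klrb1c followed the same split, with its B6 ROR- arrays clear of the B6 iNKT17 arrays and its BALB/c groups overlapping. Klrb1c fell by 2.49 ± 0.36 in B6 (5.63-fold, adjusted p = 0.00131). Its BALB/c difference was -0.26, with a 95% interval from -0.91 to 0.39. For the inhibitory receptor gene Klrb1b the B6 iNKT17 arrays were the higher ones, and the BALB/c groups overlapped. Klrb1b rose by 1.11 ± 0.18 in B6 (2.16-fold, adjusted p = 0.00288), and its BALB/c difference was 0.01, with an interval from -0.31 to 0.33 at values close to the dim level.

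**Figure D2:**
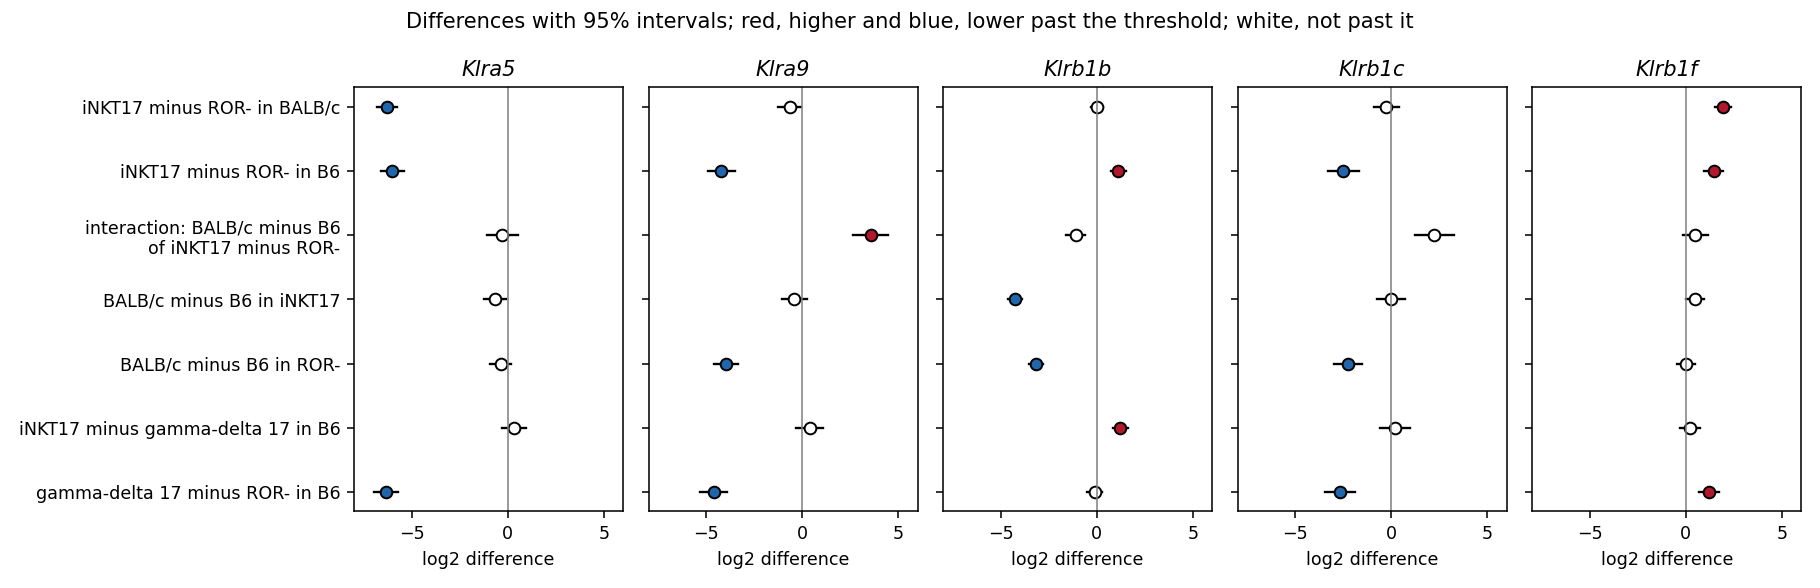
Log2 differences of the 5 receptor genes in the 7 comparisons, with 95% intervals from limma; red and blue mark differences past the threshold of 0.05 on the adjusted p, higher and lower. Klra5 falls by 6.29 and 6.01 from ROR- to iNKT17 cells of BALB/c and B6, and the interaction is past the threshold for Klra9 at 3.56.

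Whether these differences themselves differ between the strains was tested as an interaction, the BALB/c difference minus the B6 difference. Klra9 was the 1 member past the threshold, at 3.56 ± 0.41 (limma adjusted p = 0.0134), where 0.084% of all genes passed. Klra9 entered the test through its high B6 ROR- values and its other 4 group means lie below the dim level, so nothing is read from that count. This call was lost on leaving out any 1 of the 4 B6 ROR- and iNKT17 arrays, with values from 3.48 to 3.64 and adjusted p from 0.0717 to 0.108. Klrb1c had an interaction of 2.24 ± 0.47 (adjusted p = 0.198) and Klrb1b one of -1.10 ± 0.23 (adjusted p = 0.208), so a strain difference in their response was not shown. The interactions of Klra5 (-0.28 ± 0.36) and Klrb1f (0.50 ± 0.31) both had an adjusted p of 0.999; the 95% intervals ran from -1.07 to 0.52 and from -0.17 to 1.16.

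The second comparison asked how the strains differ within a cell type. In iNKT17 cells 1 member passed, against 1.48% of all genes, and in ROR- cells 3 members passed, all lower in BALB/c, against 1.22% of all genes; Klra9 is one of the 3 and again lends the count no support. Klrb1b was lower in BALB/c iNKT17 cells by 4.27 ± 0.16 (-4.27 as BALB/c minus B6, 19.3-fold, limma adjusted p = 2.38e-07), and its difference in ROR- cells was -3.17 ± 0.16 (adjusted p = 2.28e-06). Its BALB/c means lay only 0.20 (iNKT17) and 0.19 (ROR-) above the dim level, so both differences are uncertain in size. Klra9 and Klrb1c were lower in BALB/c ROR- cells, with no overlap between the strains. Klra9 differed by -3.97 ± 0.29 in ROR- cells (adjusted p = 4.34e-05) and by -0.41 in iNKT17 cells (adjusted p = 0.638), where both strains were below the dim level. Klrb1c differed by -2.25 ± 0.33 in ROR- cells (adjusted p = 0.00561) and by -0.02 in iNKT17 cells (adjusted p = 0.993). Without B6 ROR- replicate 1 the ROR- difference of Klrb1c was -2.02 (adjusted p = 0.0847).

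Klra5 and Klrb1f did not pass the test between strains in either cell type. Klra5 differed by -0.38 ± 0.26 in ROR- cells (adjusted p = 0.600) and by -0.65 ± 0.26 in iNKT17 cells (adjusted p = 0.299), the latter at the dim level; with either gamma-delta 17 array left out of the shared estimate of the spread, the adjusted p of the latter was 0.0198. Klrb1f differed by 0.49 ± 0.22 in iNKT17 cells (adjusted p = 0.369) and by -0.0037 ± 0.22 in ROR- cells (adjusted p = 0.998). The 95% interval of that ROR- difference of Klrb1f ran from -0.48 to 0.47.

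**Figure D3:**
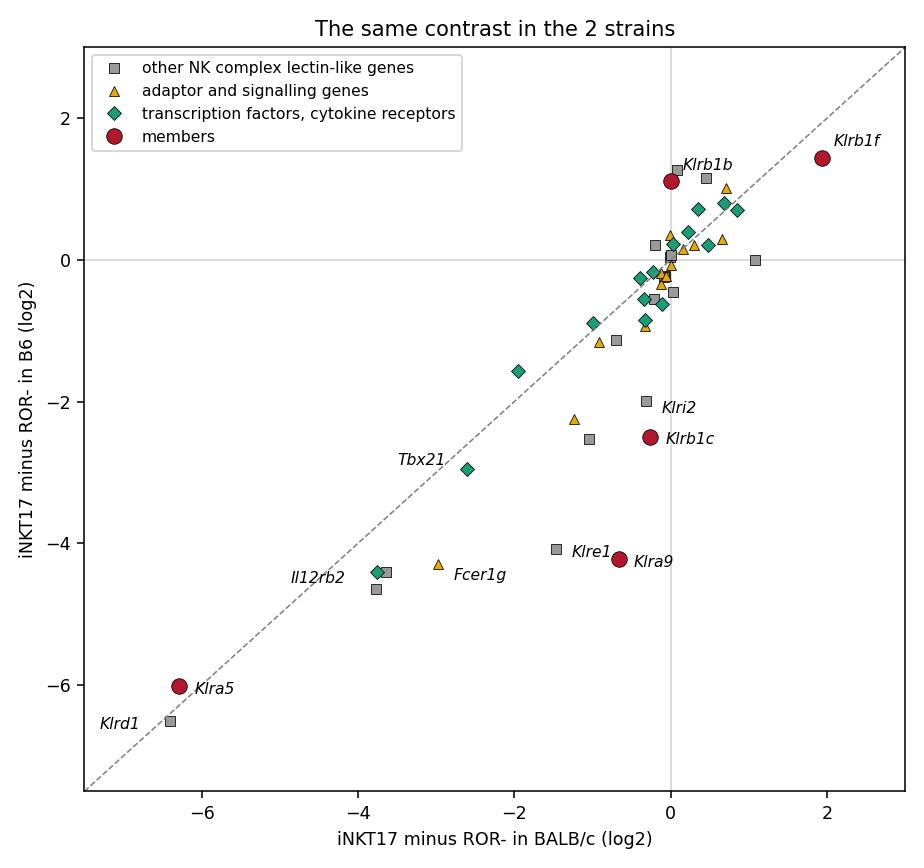
Log2 difference iNKT17 minus ROR- in BALB/c (horizontal) against B6 (vertical), which share no arrays, for the 5 receptor genes (red circles) and the genes of 3 lists; the dashed line marks equal differences. Klra5 and Klrb1f lie near the line, while Klra9 and Klrb1c lie at -0.67 and -0.26 in BALB/c and at -4.23 and -2.49 in B6.

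In B6 mice, gamma-delta 17 cells, T cells of the gamma-delta lineage that also make interleukin 17, were set against ROR- cells and against iNKT17 cells. These comparisons share arrays with those above, so their values stand side by side and are not independent. Against ROR- cells, Klra5, Klra9 and Klrb1c were lower and Klrb1f higher in gamma-delta 17 cells, so 3 members fell and 1 rose, where 6.02% of all genes passed; Klra9, which entered through these B6 ROR- arrays, lends that count no support. Klra5 fell by 6.33 ± 0.28 (limma adjusted p = 6.52e-07), Klra9 by 4.61 ± 0.32 (adjusted p = 9.25e-06) and Klrb1c by 2.68 ± 0.36 (adjusted p = 7.91e-04). These 3 genes were also the ones that fell in B6 iNKT17 cells, measured against the same ROR- arrays. Klrb1f rose by 1.22 ± 0.24 (adjusted p = 0.00866); without B6 ROR- replicate 2 it was 1.06 (adjusted p = 0.0904) and without gamma-delta 17 replicate 2 it was 1.01 (adjusted p = 0.0863). Klrb1b differed by -0.11 ± 0.18 (adjusted p = 0.818).

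Between iNKT17 and gamma-delta 17 cells, Klrb1b was the 1 member past the threshold, against 0.168% of all genes. It was 1.22 ± 0.18 higher in iNKT17 cells (2.33-fold, limma adjusted p = 0.0224). The call was lost in a model of these 2 groups alone (adjusted p = 0.121) and without any 1 of their 4 arrays (adjusted p from 0.0601 to 0.277). The other members differed by 0.19 to 0.39, with adjusted p from 0.780 to 0.907. For Klra5 this rests on gamma-delta 17 arrays of 3.87 and 2.65, and without replicate 1 the difference was 0.92 (adjusted p = 0.0387).

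The 2 gamma-delta 17 arrays differed beyond Klra5. Replicate 1 was also the higher for Klrb1c, and it held Cd8a at 8.76 against 5.47 on replicate 2, Cd8b1 at 8.24 against 4.30 and Klrd1 at 6.03 against 3.69. Over the list of 4 CD8 T cell markers, the mean was 6.69 on replicate 1, 4.64 on replicate 2 and between 4.61 and 5.70 on all other arrays. Lyz2, a marker of macrophages and monocytes, was 6.86 on replicate 1 and 3.59 on replicate 2, and the mean over 8 macrophage, monocyte and dendritic markers was 4.32 on replicate 1 against 3.65 to 3.83 on the other 11 arrays. Of that list Lyz2 differed most between the 2 arrays. Adgre1 was 3.42 to 3.58 on them, below its ROR- means of 4.12 in both strains, and Cd68 was 5.85 to 5.98, within the other group means. Csf1r, with a mean of 4.13, was above the other group means (at most 3.82). The mean over 5 B cell markers was 4.22 and 4.59 on gamma-delta 17 replicates 1 and 2, and lower on each of the other arrays. Among these 5, Cd79b stood apart, with a gamma-delta 17 mean of 7.86. Its means were 6.63 in B6 and 6.35 in BALB/c iNKT17 cells, and lower in ROR- cells. Cd79a, at 3.88, was below its ROR- means of 4.31 in BALB/c and 4.44 in B6. Pax5, at 4.01, was below every other group mean, and Cd22, at 3.34, was within them. Ms4a1, at 2.94, was above the other group means (at most 2.82) but below the dim level. The part of these markers in the gamma-delta 17 values was not tested; without replicate 1, Klra5 fell by 6.93 and Klrb1c by 3.20 against ROR- cells, and without replicate 2 by 5.72 and 2.16. Those 4 values were all past the threshold. Among genes of the lists, Fcer1g fell by 3.20, Tbx21 by 2.63 and Il12rb2 by 4.33 from ROR- to gamma-delta 17 cells.

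The labels were checked against marker genes. Of the type 17 markers 8 were tested, and 7 rose in BALB/c and 5 in B6 iNKT17 cells, with none falling. Over all genes tested, 6.97% passed in BALB/c and 5.99% in B6. Il22, which rose in both strains, was above the dim level on only 1 ROR- array, of BALB/c. It passed the filter through the groups where it is high and lends these counts no support. BALB/c ROR- replicate 2 held a mean over these 8 markers of 5.93, whereas replicates 1 and 3 of that group held 4.21 and 4.40. That array was also the highest of its group for Klrb1f and the lowest for Klra9, and without it the Klrb1f rise in BALB/c was 2.12. The mean over 5 T cell markers lay between 9.85 and 10.89 on every array, but Cd2, an adhesion receptor of T and NK cells singled out after its values were seen, was not alike in all groups. Cd2 fell from ROR- to iNKT17 cells by 4.02 ± 0.18 in BALB/c (limma adjusted p = 3.57e-07) and by 2.11 ± 0.22 in B6 (adjusted p = 1.20e-04). Its interaction was -1.91 (limma adjusted p = 0.0447), and its own values under the alternatives were not read. That call was lost in the fit without B6 ROR- replicate 2.

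Markers of conventional NK cells, which carry both receptor families, were set beside the members that were high in ROR- cells; the list shares Eomes, Klre1, Klri2 and Klrg1 with other lists used here. Of 11 tested, 4 fell and none rose from ROR- to iNKT17 cells in each strain, and 2 were lower in BALB/c than in B6 ROR- cells. Over all genes tested, 6.97%, 5.99% and 1.22% passed in the BALB/c, B6 and strain comparisons. Eomes was above the dim level only on ROR- arrays and 1 gamma-delta 17 array, and Klri2 only on the 2 B6 ROR- arrays. Both passed the filter through groups where they are high and lend these counts no support. The level summed over all 12 markers on the linear scale ranged from 1287 to 2693 in BALB/c ROR-, from 1563 to 2718 in BALB/c iNKT17, from 2920 to 3685 in B6 ROR-, from 2588 to 3124 in B6 iNKT17 and from 1135 to 1876 in gamma-delta 17 cells. Ncr1, a receptor that defines NK cells, lay between 3.47 and 4.74 on all 12 arrays. Most of that sum is Gzmb (granzyme B), whose difference was 0.50 in BALB/c and 0.0075 in B6 (limma adjusted p = 0.501 and 0.997). In the same order of strains, Gzma (granzyme A) fell by 2.58 and 4.83 (limma adjusted p = 0.0498 and 0.00533). Klre1 fell by 1.47 and 4.08 (limma adjusted p = 0.00647 and 2.46e-05). The Gzma call in BALB/c lay just under the threshold, and its BALB/c ROR- arrays ranged from 4.46 to 7.44. The number of the 12 markers with a group mean below the dim level was 2, 4, 1, 5 and 2 in the same order of groups. The part of these markers in the members' differences was not tested.

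Other genes of the 2 families had few readable probe sets. Of 32 others listed, 6 had a probe set of their own symbol, and 1, Klrb1, was tested; Klra11, outside that list and added after its values were seen, was also below the filter. Klrb1 lay between 3.34 and 4.15, with no call in any of the 7 comparisons. Klra6, which encodes Ly49F, was 3.62 and 3.35 on the B6 ROR- arrays and at most 2.35 on all others, and was not tested. A further 4 probe sets carry the symbols of several Klra or Klrb genes and were not read. Because near-identical family members could share probes, each Ly49 and NKR-P1 value may include signal from another member.

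**Figure D4:**
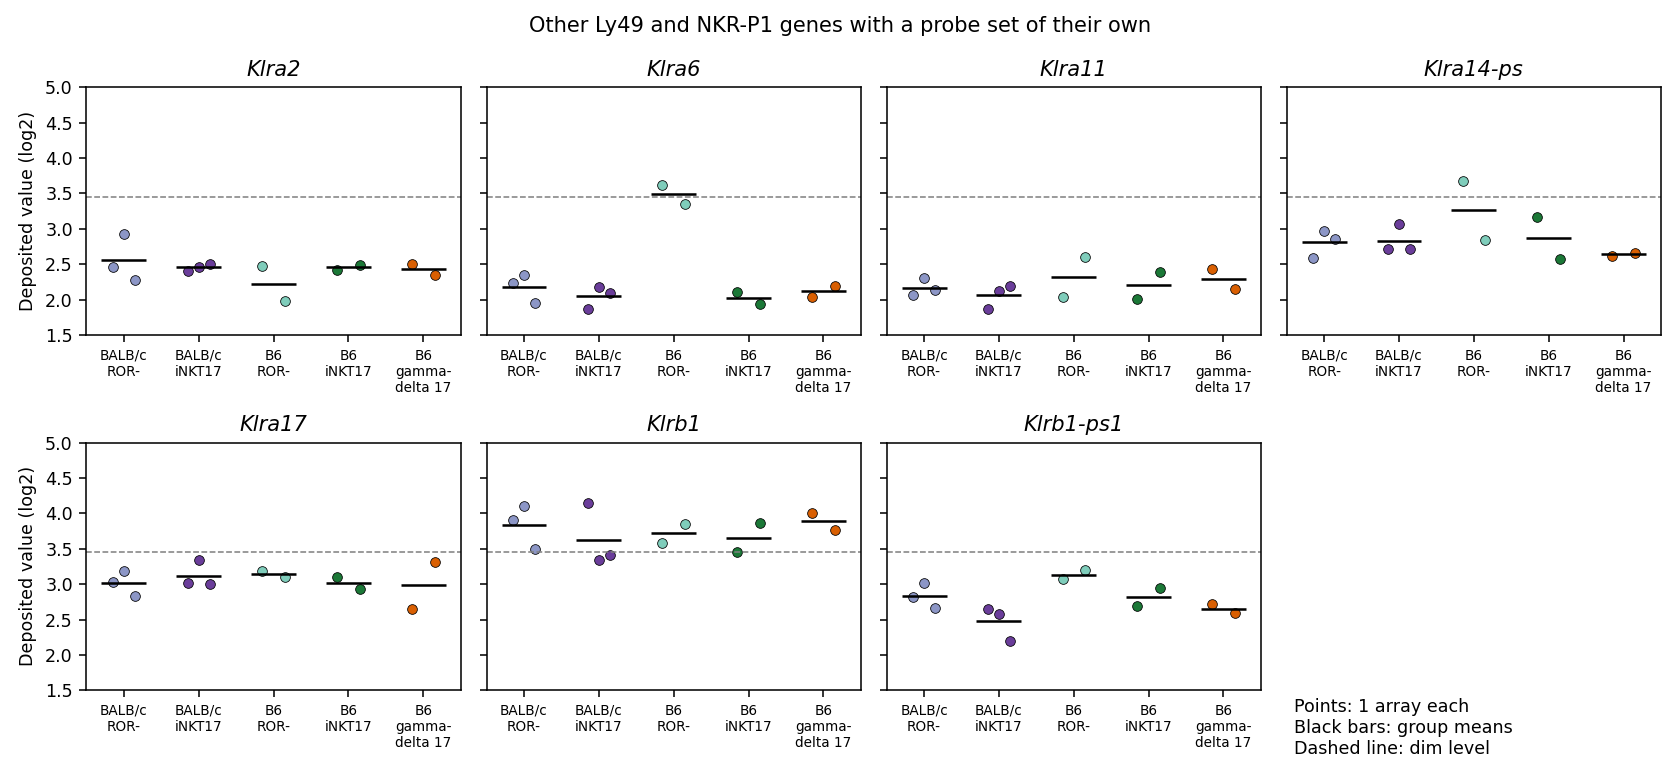
Deposited log2 values of the other Ly49 and NKR-P1 genes that have a probe set of their own, with 1 point per array, black bars for group means and a dashed line at the dim level of 3.45. Klra6 reaches 3.62 and 3.35 on the B6 ROR- arrays and stays at or below 2.35 elsewhere, and Klrb1 stays between 3.34 and 4.15.

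Of the other lectin-like receptor genes of the NK gene complex, 17 were tested. From ROR- to iNKT17 cells 5 fell and 1 rose in BALB/c, with a list median of -0.20 against 0.00 for all genes, and 7 fell and 1 rose in B6, with a median of -0.45 against -0.01. Over all genes tested, 6.97% passed in BALB/c and 5.99% in B6. Klrc2, Klrh1 and Klri2, which fell in B6, passed the filter only through ROR- arrays, and Klrc2 also fell in BALB/c. Clec2g, the 1 that rose in BALB/c, passed it only through BALB/c iNKT17 arrays. These genes lend the counts no support. Klrd1, which encodes CD94, the partner chain of NKG2 receptors, fell by 6.41 ± 0.42 in BALB/c and by 6.51 ± 0.51 in B6 (limma adjusted p = 3.27e-06 and 1.62e-05). In the strain comparison of ROR- cells 4 were lower in BALB/c and none higher, where 1.22% of all genes tested passed. They are named after their values were seen, save Klri2. Klri2 passed the filter only through the B6 ROR- arrays and lends that count no support. Klre1 differed by -2.27, Klri2 by -1.67, Klrc2 by -1.46 and Klrk1, which encodes NKG2D, by -1.45. The adjusted p of Klre1, Klrc2 and Klrk1 rose above the threshold under at least 1 alternative, to at most 0.0544, 0.186 and 0.157.

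Of the ligand genes, 7 were tested, with list medians of -0.01 in BALB/c and 0.04 in B6 for iNKT17 minus ROR-. Clec2d, which encodes the Klrb1b ligand Clr-b, differed by -0.22 in BALB/c (limma adjusted p = 0.809) and by -0.55 in B6, with no call. Clec2i, which encodes the Klrb1f ligand Clr-g, rose by 1.28 ± 0.29 in B6 iNKT17 cells (adjusted p = 0.0204), a call lost on leaving out any 1 array of the 2 groups (adjusted p from 0.0663 to 0.148). In BALB/c the Clec2i difference was 0.08. In iNKT17 cells Clec2i was lower in BALB/c than in B6 by 1.92 ± 0.26 (-1.92, adjusted p = 0.00343), while Clec2g was higher by 1.22 (adjusted p = 0.0173, and up to 0.245 under the alternatives). Clec2g lay above the dim level on the 3 BALB/c iNKT17 arrays alone and passed the filter only through them, with a mean of 2.75 in B6 iNKT17 cells. H2-K1, an MHC class I gene, was lower in BALB/c in both cell types, at -1.23 in iNKT17 and -1.14 in ROR- cells, and its strain alleles differ as those of the receptors do. The classical MHC class I genes are the ligands of Ly49 receptors. Without B6 ROR- replicate 1 the ROR- difference of H2-K1 was -0.96 (adjusted p = 0.0706). Plau, which encodes urokinase, rose by 0.79 in B6 iNKT17 cells (limma adjusted p = 0.00362), and its BALB/c difference was 0.32 (adjusted p = 0.125).

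Of the adaptor and signalling genes, 13 were tested. Fcer1g, whose product carries the signal of NKR-P1C, fell from ROR- to iNKT17 cells by 2.98 ± 0.25 in BALB/c and by 4.29 ± 0.30 in B6 (limma adjusted p = 1.95e-05 and 9.13e-06). Tyrobp, which encodes the adaptor DAP12 of activating Ly49 receptors, fell by 1.24 in BALB/c (adjusted p = 0.0342) and by 2.24 in B6 (adjusted p = 0.00395). Both Tyrobp calls were lost on leaving out single arrays (adjusted p up to 0.118 and 0.0513). Plcg2 rose by 0.71 in BALB/c and by 1.01 in B6, and Zap70, a kinase of T cell receptor signalling, by 0.66 in BALB/c; without single arrays their adjusted p reached 0.0653, 0.0652 and 0.0639. In ROR- cells Fcer1g was lower in BALB/c than in B6 (-1.60, adjusted p = 0.0157), as Klrb1c was, a call lost without either B6 ROR- array or BALB/c ROR- replicate 3 (adjusted p up to 0.170).

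Of 15 tested transcription factor and cytokine receptor genes known for the control of NK receptor genes, 4 fell and 1 rose in BALB/c and 5 fell and 2 rose in B6 from ROR- to iNKT17 cells. Over all genes tested, 6.97% passed in BALB/c and 5.99% in B6. Eomes, above the dim level only on ROR- arrays and 1 gamma-delta 17 array, lends these counts no support. Tbx21, which encodes T-bet, fell by 2.60 ± 0.22 in BALB/c and by 2.95 ± 0.27 in B6 (limma adjusted p = 1.97e-05 and 4.15e-05). Il12rb2, a chain of the interleukin 12 receptor, fell by 3.76 and 4.40, Il2rb by 1.95 and 1.57, and Eomes by 0.999 and 0.89 in BALB/c and B6. The genes that rose, named after their values were seen, were Runx1 in both strains and Prdm1 in B6. Runx1 rose by 0.84 in BALB/c and by 0.70 in B6 (limma adjusted p = 0.00180 and 0.0225), and Prdm1 by 0.72 (adjusted p = 0.0125). Both B6 calls were lost under at least 1 alternative. The Il2rb call in B6 was lost on leaving out any 1 array of the 2 groups (adjusted p up to 0.101). None of the 15 passed between the strains in ROR- cells, where 1.22% of all genes tested passed, so nothing is read from that count. In iNKT17 cells Zbtb16, which encodes PLZF, was 0.98 higher in BALB/c (adjusted p = 0.0190), a call lost without either B6 iNKT17 array or without BALB/c iNKT17 replicate 1 or 3 (adjusted p up to 0.134).

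The genes whose values ran most closely with each member were found over the 12 arrays, among 1520 genes whose group means span at least 1 log2 unit. Because the arrays fall into 5 groups, the Pearson correlations describe mainly the size of the differences between group means, and less their order. Rank correlations of the same pairs ran from 0.622 (Nsg2 with Klrb1c) to 0.965 (Nid1 with Klrb1f), and were 0.636 and 0.664 for Klri2 with Klra9 and Klrb1c. Klra5 ran closest to Samd3 (r = 0.995), Mctp2 (0.989) and Il12rb2 (0.988), and Klrb1f to Stab2 (0.977), Nid1 (0.977) and Plekhb2 (0.975). Klra9 and Klrb1c had the same closest gene, Klri2, at 0.967 and 0.940; Klra9 was followed by Cpne7 (0.946) and Hdc (0.943), and Klrb1c by Pilrb2 (0.925) and Nsg2 (0.909). Klrb1b ran closest to H2-T10 (0.976), Ppp1r3e (0.966) and Hspe1 (0.948). Among the members themselves, Klra9 and Klrb1c correlated at 0.911 and Klra5 and Klrb1f at -0.945.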

How the data were processed

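The members and the gene lists were chosen with earlier results of these data known. Total RNA came from an RNeasy extraction of what the labels' protocols call frozen tissue, while the sample labels name cells, and was labelled with biotin as cRNA. The authors deposited processed values on a log scale, taken as log2, for 41345 probe sets. The R package oligo is named per the submitters' processing notes; which version, summarisation, normalization and log base applied is not given in the sources used here. No further normalization was applied to the deposited values.

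Gene symbols came from the platform annotation, which can be old: 23521 had 1 symbol, 1814 several and 16010 none given here. Where a gene had several, the brightest by mean over 12 arrays was kept. Genes above the dim level of 3.45 on at least 2 arrays were tested (16667 of 22180). A group-means model of all 12 arrays was fitted with limma 3.58.1 in R 4.3.3 (7 residual and 4.50 prior degrees of freedom), with Benjamini-Hochberg adjustment over all genes tested and a threshold of 0.05. The 7 comparisons were repeated under 21 alternatives, and the fit was tested on simulated data. Replicates correlated at 0.973 to 0.986 across probe sets, and 0 pairs of arrays were identical.

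The rule for named genes took the 5 members, up to 4 genes past the threshold of each ligand, adaptor and regulator list per comparison, Tbx21, Tyrobp, Fcer1g, Clec2d, Clec2i and Klrd1, other family genes with their own probe set, and the 3 genes most like each member by Pearson correlation. Promoter windows, the 250 bases before a start, came from RefSeq (GRCm38.p6), where all 5 members were found; local alignments and motif searches were run in Python 3.11.15 with Biopython 1.88 (match 2, mismatch -3, gap opening -5, gap extension -2).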

Additional observations from a re-analysis of the deposited data

Results flagged for a closer look

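The strain-by-cell-type interaction, the BALB/c difference of iNKT17 minus ROR- cells less the B6 difference, passed the test for Klra9, at 3.56 on the log2 scale: Klra9 fell by 4.23 in B6 and differed by -0.67 in BALB/c. It also passed for Klri2, another lectin-like receptor gene of the NK gene complex and the gene most like Klra9 and Klrb1c, at 1.67 (limma adjusted p = 0.0364). The Klri2 call was lost in 8 of 12 fits that left out 1 array, with adjusted p up to 0.185, and that of Klra9 without any 1 of the 4 B6 ROR- and iNKT17 arrays. Both stand here because the difference between the strains was itself tested. Klri2 lay above the dim level only on the 2 B6 ROR- arrays, and Klra9 on these and on BALB/c ROR- replicate 3. Both genes thus passed the filter through the group where they are high, and their calls lend no support to a strain difference beyond the values themselves.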

How the results depend on the processing

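The 35 differences of the 5 members were recomputed under 21 alternatives, which gave 735 values: 704 kept direction and side of the threshold, 12 lost the call, 4 gained one and 15 changed sign. Of the 17 calls, 13 were kept under all alternatives; the other 4 were Klra9 in the interaction, Klrb1c between strains in ROR- cells, Klrb1b between iNKT17 and gamma-delta 17 cells, and Klrb1f between gamma-delta 17 and ROR- cells. The cause of these changes was not tested.

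The count of genes past the threshold in the interaction was 14, falling to 9 with arrays centred on their medians, 9 after renewed quantile normalization and 6 with the replicate number as a block. With the replicate block, the Klri2 interaction was just above the threshold and the Klrb1f strain difference in ROR- cells was 0.026; no member lost or gained a call. Same-numbered arrays of different groups did not deviate together (21 pairs, median r = -0.01, from -0.46 to 0.47), so the numbers were not taken to pair samples. BALB/c minus B6 in iNKT17 gave 549 genes with array weights against 247. With only the groups compared in the model, BALB/c minus B6 in ROR- gave 82 genes against 203, and iNKT17 minus gamma-delta 17 gave 2 genes and 0 members against 28 and 1; fewer samples then set the spread. Centring arrays moved the median of all genes by 0.12 between iNKT17 and gamma-delta 17 cells, and by under 0.1 elsewhere. Signs of differences that never passed changed for Klrb1c between strains in iNKT17 (0.063 with array weights) and for Klrb1f between strains in ROR- cells (0.043 after quantile normalization, 0.080 with array weights).

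Leaving out 1 array at a time, genes past the threshold ranged from 742 to 1150 for iNKT17 minus ROR- in BALB/c, from 492 to 1058 in B6, from 0 to 15 in the interaction, from 77 to 530 and from 68 to 259 between strains in iNKT17 and ROR- cells, from 5 to 63 for iNKT17 minus gamma-delta 17 and from 530 to 1151 for gamma-delta 17 minus ROR-. Members past the threshold ranged from 0 to 1 in the interaction and in iNKT17 minus gamma-delta 17, and from 1 to 2 between strains in iNKT17. Differences not past the threshold also crossed 0: in BALB/c for Klrb1b (-0.12 to 0.15), Klrb1c (-0.55 to 0.032), Clec2d (-0.48 to 0.12) and Clec2i (-0.10 to 0.29), between strains for Klrb1c in iNKT17 (-0.31 to 0.27) and Klrb1f in ROR- cells (-0.19 to 0.15), and for iNKT17 minus gamma-delta 17 for Klra5 (-0.29 to 0.92) and Klrb1c (-0.33 to 0.71). The stricter dim filter gave no value for Clec2g and Eomes, which it removed. Where an arm was left with 1 array, it was assumed to vary like the other groups.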
